A study of Homo sapiens with 12 samples.

Results

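The 46 genes described here are a fixed list of human mitosis genes, whose transcripts accumulate in G2 and M phase of the cell cycle. They were found by gene name in all 12 transcript quantification files of an RNA-seq series on NS-SV-AC cells, a human salivary gland acinar line immortalised with SV40. All 46 were found among 60609 annotated genes, and all 46 passed the filter for low values that left 17185 genes for testing. The list was not chosen on measured values of one comparison, but it was proposed with earlier results of these data known.

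The series belongs to work on Sjögren's syndrome and double-stranded RNA of mitochondria, and held 6 groups of 2 libraries each. Cells were treated with 2-CM (2'-C-methyladenosine, a nucleoside analog that inhibits the mitochondrial RNA polymerase), with RES (resveratrol, a plant polyphenol) or with the same volume of DMSO as control. Cells received a compound at a dose written as 20 μm in the labels, 24 h ahead of the transfection and once more at its time. The transfected material was poly I:C, which mimics viral double-stranded RNA, for 14 h, or what the labels call depc. The groups are therefore DMSO depc, DMSO poly I:C, 2-CM depc, 2-CM poly I:C, RES depc and RES poly I:C, all from the same line and grown for 48 h. The labels number the replicates but do not say that they were separate cultures. The p-values therefore measure the spread between replicate libraries, pooled over all 6 groups, which may be technical. In bulk RNA, fewer cells in mitosis and less RNA per mitotic cell cannot be told apart.

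Entry into mitosis is driven by the kinase CDK1 bound to cyclins B and A, which CDC25 phosphatases activate. PLK1 and the Aurora kinases then organise the spindle, and the spindle checkpoint holds back CDC20, the activator of the anaphase-promoting complex, until every kinetochore is attached. The genes share a transcriptional programme: the DREAM complex represses them in resting cells, and B-MYB, FOXM1 and the MuvB core activate them in dividing cells through CHR elements, often next to CCAAT boxes bound by NF-Y.

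Matches to these motifs were more frequent in the promoters of the list than in all promoters. They are given as a description, and a relation of motif number to the responses was not tested. RefSeq promoter windows of 300 bases, reaching from 250 bases before the start to 50 after it (GRCh38.p14), matched 39 of the 46 members. The CHR, searched as TTTGAA or TTCGAA on both strands, was present in 27 of the 39 (69.2%) and in 16.4% of all 34796 promoters. CCAAT, searched on both strands, was present in 27 of the 39 (69.2%) against 34.6% of all promoters, and at least 2 copies in 15 (38.5%) against 10.8%. Both motifs stood together in 21 (53.8%) against 6.4%. A match is a description of these letters and not evidence of binding. Stretches of up to 250 bases, with both motifs in capitals on either strand and adjoining matches run together, are given 5′ to 3′ on the gene's strand for 6 members whose values are described below.
PLK1: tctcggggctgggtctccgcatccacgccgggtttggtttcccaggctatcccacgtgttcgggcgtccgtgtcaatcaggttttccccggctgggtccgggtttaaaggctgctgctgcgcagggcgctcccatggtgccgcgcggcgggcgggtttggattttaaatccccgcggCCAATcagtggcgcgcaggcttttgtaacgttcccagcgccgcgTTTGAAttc
CDC20: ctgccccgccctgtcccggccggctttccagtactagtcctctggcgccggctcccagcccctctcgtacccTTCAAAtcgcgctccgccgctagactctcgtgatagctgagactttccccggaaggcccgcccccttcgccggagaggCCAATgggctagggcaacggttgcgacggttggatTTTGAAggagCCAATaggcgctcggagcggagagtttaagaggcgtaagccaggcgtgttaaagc
KIF20A: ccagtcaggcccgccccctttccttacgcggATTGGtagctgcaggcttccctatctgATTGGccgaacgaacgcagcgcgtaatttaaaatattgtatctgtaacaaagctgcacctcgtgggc
PTTG1: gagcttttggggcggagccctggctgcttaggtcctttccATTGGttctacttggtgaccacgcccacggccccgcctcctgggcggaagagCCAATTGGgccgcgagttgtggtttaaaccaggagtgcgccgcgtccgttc
CDK1: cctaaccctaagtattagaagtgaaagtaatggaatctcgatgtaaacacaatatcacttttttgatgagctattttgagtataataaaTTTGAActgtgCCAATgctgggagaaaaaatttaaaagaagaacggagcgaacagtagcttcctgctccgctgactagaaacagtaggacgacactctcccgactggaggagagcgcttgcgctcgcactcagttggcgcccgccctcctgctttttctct
MKI67: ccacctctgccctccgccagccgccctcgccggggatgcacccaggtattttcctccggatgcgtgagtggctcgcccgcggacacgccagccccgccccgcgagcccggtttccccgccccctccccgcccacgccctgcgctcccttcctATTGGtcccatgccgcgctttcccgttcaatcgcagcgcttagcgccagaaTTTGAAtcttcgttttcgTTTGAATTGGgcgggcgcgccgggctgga

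The PLK1 stretch lies at chr16:23678639-23678868 (+ strand) and ends 20 bases before the RefSeq start, where a CHR stands close to the end of the stretch. The other stretches end at the start: CDC20 at chr1:43358731-43358980 (+ strand), KIF20A at chr5:138178987-138179111 (+ strand) and PTTG1 at chr5:160421712-160421854 (+ strand). CDK1 lies at chr10:60778081-60778330 (+ strand) and MKI67 at chr10:128126424-128126673 (− strand). CDC20 and MKI67 carried 2 CHR and 2 CCAAT matches each, and PLK1 and CDK1 carried 1 of each. KIF20A and PTTG1 held no CHR match in the window and 2 and 3 CCAAT matches.

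The libraries held 31.2 to 49.4 M estimated reads, and 13438 to 16554 genes reached 1 TPM, a level scaled for transcript length and library size. Replicates differed along 1 direction that carried 77.6% of the replicate variance and moved with the GC content of the transcripts. This touches the list directly, because the members' transcripts are GC-poor: their GC content ran from 35.3 to 59.3% with a median of 42.7%, against 49.3% over all genes tested. The mean member level on the log2(TPM + 1) scale was 5.39 and 4.85 in the DMSO depc libraries, 5.67 and 4.79 in DMSO poly I:C, 4.90 and 4.59 in 2-CM depc, 6.28 and 6.10 in 2-CM poly I:C, 5.23 and 4.19 in RES depc, and 4.54 and 5.32 in RES poly I:C. Apart from the 2-CM poly I:C libraries, which stood highest, the groups overlapped. After each library's trend with GC was removed, the same means were 5.33 and 5.19, 5.48 and 5.33, 5.31 and 5.18, 5.52 and 5.46, 4.82 and 4.64, and 4.70 and 4.86, and the 4 RES libraries were the lowest. Between replicates, 29 members in RES depc, 21 in DMSO poly I:C and 21 in RES poly I:C differed by at least 1 log2 unit (against 28.8%, 21.3% and 16.1% of all genes), as did 3 in DMSO depc and 0 in the 2-CM groups, and none did after the trend was removed. Results are therefore given on the log2(TPM + 1) scale and, for the main counts and the members named beside them, with the GC trend removed.

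Of the 6 epithelial markers listed, 5 were found by name. KRT8 and KRT18 were abundant, between 629.8 and 1958 TPM and between 466 and 1571 TPM. The others with values were near absent: KRT7, also an epithelial keratin, reached 2.16 TPM at most, EPCAM 1.23 and CDH1 0.596. Of 16 listed salivary acinar markers 9 were found by name, and the rest have no value here. The acinar origin of the line was not visible among those found. Their summed level was 2.46 to 14.5 TPM per library, AQP5 was at 0 and AMY1A at most 0.0463. VIM, a mesenchymal filament gene, stood at 386 to 819 TPM. The other listed fibroblast or mesenchymal markers were far lower. COL1A1 stood at 15.9 to 100 TPM, COL3A1 at 14.2 to 60.1, LUM at 1.89 to 32.5 and DCN at 0.584 to 18.0. COL1A2 and PDGFRA reached at most 0.0193 and 0.0813 TPM. Of 6 listed leukocyte markers 3 were found by name, and these summed to 7.41 to 16.5 TPM.

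**Figure D1:**
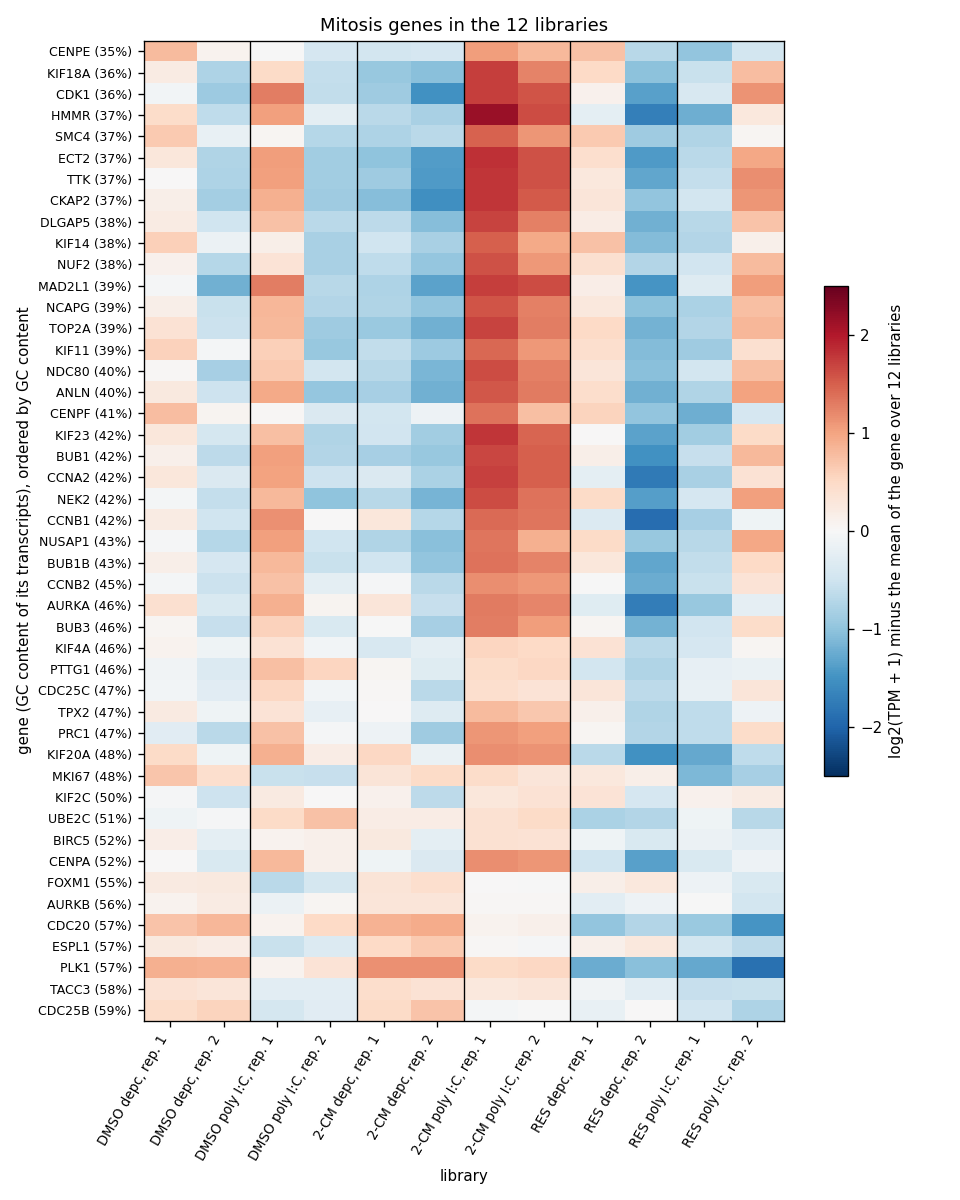
Each cell gives the log2(TPM + 1) level of 1 mitosis gene in 1 library minus that gene's mean over the 12 libraries; genes run from low to high GC content and black lines separate the 6 groups. Most GC-poor genes are high in both 2-CM poly I:C libraries and low in RES depc replicate 2, whereas CDC20 and PLK1 are low in all 4 RES libraries.

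With RES, PLK1 and CDC20 were lower than with DMSO under both transfections, and PLK1 had the lowest fold change of the list. PLK1 is the kinase that drives centrosome maturation and spindle assembly. PLK1 (ENSG00000166851.15, chromosome 16, 23677656 to 23690367) stood at 117 and 115 TPM in DMSO depc and at 66.6 and 79.9 TPM in DMSO poly I:C. It was at 25.9 and 30.0 TPM in RES depc and at 25.1 and 16.6 TPM in RES poly I:C. All 4 RES libraries lay below all 4 DMSO libraries and below the 2-CM libraries, which held 139.7 and 139.3 TPM in 2-CM depc and 87.4 and 90.2 TPM in 2-CM poly I:C. PLK1 fell by 2.02 (SE 0.21) on the log2 scale with RES under depc (limma, Benjamini-Hochberg adjusted p = 0.0133) and by 1.79 (SE 0.21) under poly I:C (adjusted p = 0.0278). Averaged over both transfections, a contrast chosen after seeing the data, it fell by 1.90 (SE 0.15, adjusted p = 0.00144), and the call was kept whichever of the 12 libraries was left out. The averaged call held under all 12 other settings as well, the largest adjusted p being 0.0464, whereas the call under depc was lost in 3 of the 12 and that under poly I:C in 6, both scalings among them.

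CDC20, which hands substrates to the anaphase-promoting complex, was also lowest in the RES libraries. CDC20 stood at 426 and 459.9 TPM in DMSO depc, 276 and 368 TPM in DMSO poly I:C, 129.9 and 155 TPM in RES depc, and 135 and 92.8 TPM in RES poly I:C. The 4 RES libraries again did not overlap the 4 DMSO libraries. CDC20 fell by 1.64 (SE 0.21, adjusted p = 0.0223) with RES under depc and by 1.501 (SE 0.21, adjusted p = 0.0433) under poly I:C in the limma fit. The averaged decrease was 1.57 (SE 0.15, adjusted p = 0.00265), kept without any 1 library. It missed the threshold when only the groups compared were fitted (adjusted p = 0.0518). Of the 12 other settings, 4 lost the CDC20 call under depc and 7 that under poly I:C.

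With RES under depc, PLK1 and CDC20 were 2 members called lower and 0 higher, against 0.192% of all tested genes called lower and 0.838% higher. Under poly I:C the same 2 were called lower and 0 higher, against 0.0873% and 0.0698% of all genes. These single-transfection calls rest on few libraries: with the GC trend kept, PLK1 under depc was lost without DMSO depc replicate 1 or 2, 2-CM poly I:C replicate 1 or 2, or RES depc replicate 1, and CDC20 under poly I:C was lost whichever of the 12 libraries was left out. The members called under depc numbered 0 to 2 with 1 library left out, and those under poly I:C 0 to 1.

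Averaged over transfections, 6 of 46 members were called lower with RES and 0 higher, against 1.29% and 6.62% of all genes tested. The member median was −0.23 on the log2 scale and the median of all genes 0.21. With 1 library left out the member median ran from −0.51 (without DMSO poly I:C replicate 2 or RES depc replicate 1) to 0.05 (without RES depc replicate 2), and that of all genes from 0.07 to 0.35. Beside PLK1 and CDC20, the 6 were KIF20A, UBE2C, PTTG1 and TACC3. KIF20A, a kinesin of the central spindle needed for cytokinesis, was at 72.6, 47.7, 96.5 and 59.4 TPM in the DMSO libraries and at 32.3, 17.5, 20.9 and 33.0 TPM in the RES libraries, with no overlap. It fell by 1.38 (SE 0.28, limma adjusted p = 0.023), and the call was lost without DMSO depc replicate 1 or 2, DMSO poly I:C replicate 1, 2-CM poly I:C replicate 1 or 2, or RES poly I:C replicate 1. UBE2C, the ubiquitin-conjugating enzyme of the anaphase-promoting complex, was at 269, 282, 399.5 and 481 TPM in the DMSO libraries and at 167, 173, 267 and 177 TPM in the RES libraries. It fell by 0.85 (SE 0.14, adjusted p = 0.0115), a call lost without DMSO depc replicate 1 or 2. The RES libraries did not overlap the DMSO libraries for these 4 genes, CDC20, KIF20A, PLK1 and UBE2C, or 4 of 46 members, against 1.77% of all genes.

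PTTG1, the securin that keeps separase inactive until anaphase, fell by 0.61 (SE 0.13, limma adjusted p = 0.0249) in the averaged contrast. Its RES libraries held 307, 248, 366 and 372 TPM and its DMSO libraries 394, 331, 708 and 609 TPM, which overlap. TACC3, a centrosomal protein that stabilises spindle microtubules, fell by 0.41 (SE 0.10, adjusted p = 0.04), a call lost in 5 of 12 other settings. Of the 6 genes, KIF20A, CDC20 and PLK1 kept their call with median-of-ratios scaling, under which 6 members were called lower in all. With 1 library left out, the PTTG1 call was kept only without RES depc replicate 1 or 2-CM depc replicate 1 or 2, and the TACC3 call only without RES depc replicate 1. Without any other single library these 2 calls were lost, at adjusted p up to 0.104 and 0.147.

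**Figure D2:**
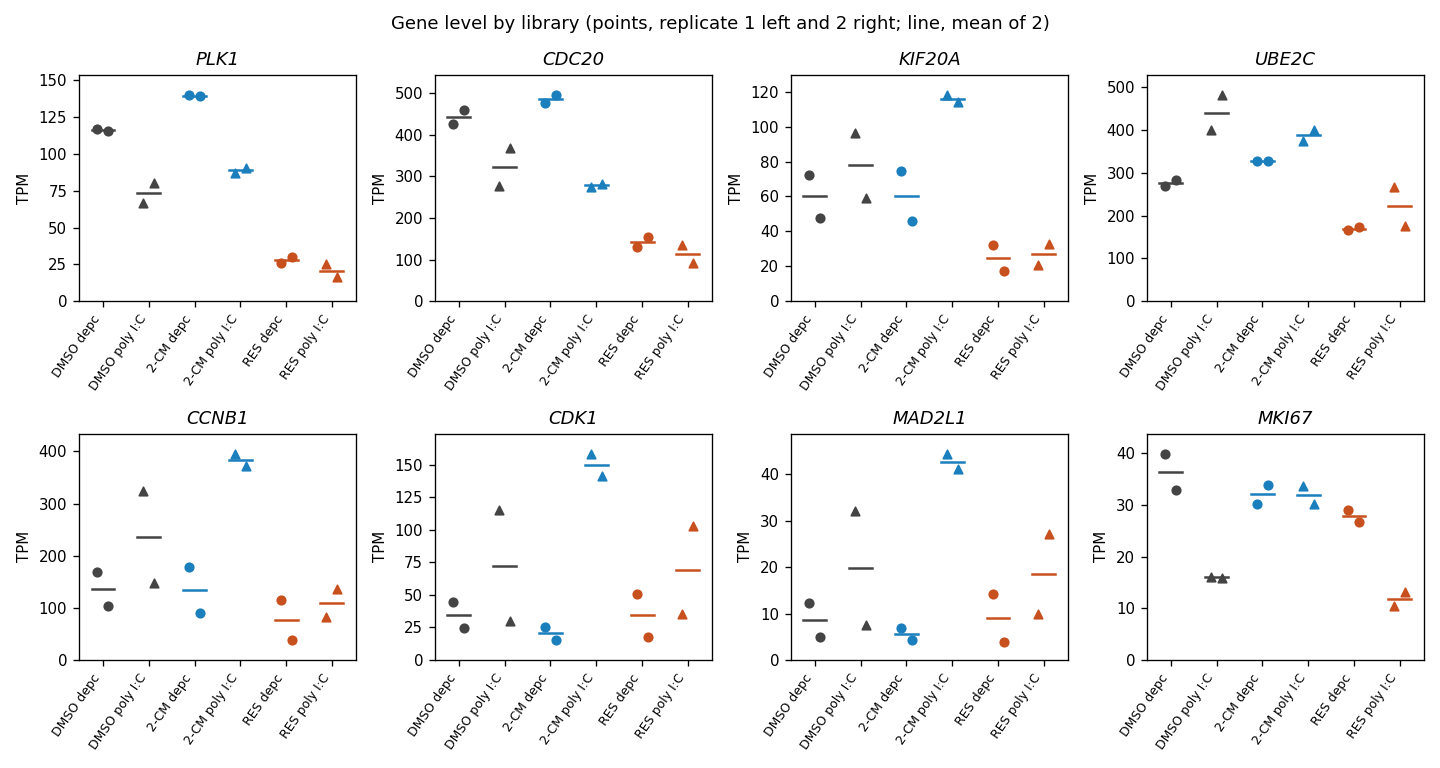
TPM of 8 mitosis genes in each of the 12 libraries, with replicate 1 left, replicate 2 right and a line at the mean of the 2; circles are depc and triangles poly I:C. PLK1, CDC20, KIF20A and UBE2C are lower in all 4 RES libraries than in all 4 DMSO libraries, whereas CCNB1, CDK1 and MAD2L1 are highest in the 2-CM poly I:C libraries and differ widely between the replicates of other groups.

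Within a role the values in this averaged contrast ranged widely, but none of those given next was called. Differences between members were not tested. Among the 7 genes of the cyclin B-CDK1 switch, CCNB1, the mitotic cyclin, had a log2 difference of −1.01 (SE 0.41, limma adjusted p = 0.186), and CDK1 one of −0.05 (SE 0.52). FOXM1, an activator of the programme, had a positive value of 0.14 (SE 0.11, adjusted p = 0.53). CDK1 stood at 44.6 and 24.5 TPM in DMSO depc and at 50.8 and 17.6 TPM in RES depc, so the groups overlapped. FOXM1 stood at 125 and 127 TPM in DMSO depc and at 118 and 128 TPM in RES depc, which also overlap. Under poly I:C it stood at 66.4 and 78.0 TPM with DMSO and at 97.6 and 81.7 TPM with RES. It was the 1 member with both RES libraries above both DMSO libraries there, against 28.3% of all genes. Of the Aurora kinases, AURKA had a difference of −1.05 (SE 0.38, adjusted p = 0.133) and AURKB one of −0.27 (SE 0.12, adjusted p = 0.238).

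On the scale with the GC trend removed, 26 of 46 members were called lower with RES and 0 higher, against 11.7% and 11.6% of all genes. Each of the 6 genes above was among the 26. PLK1 fell by 2.12, CDC20 by 1.78, KIF20A by 1.60 and UBE2C by 1.06 log2 units. AURKA fell by 1.26 (SE 0.17, limma adjusted p = 0.00113), CCNB1 by 1.23 (SE 0.16, adjusted p = 0.00092) and HMMR, a spindle assembly factor, by 1.12 (SE 0.12, adjusted p = 0.000391). CENPA, the histone H3 variant that marks centromeres, fell by 0.94, and CCNA2, cyclin A, by 0.93. CDK1 (−0.29, SE 0.17), FOXM1 (−0.07, SE 0.09) and KIF2C (−0.08, SE 0.13), a microtubule-depolymerising kinesin, did not pass the test. On this scale the 4 RES libraries lay below the 4 DMSO libraries for 16 members, against 8.02% of all genes, and UBE2C was not among them. The members called lower within a transfection numbered 14 under depc and 14 under poly I:C, against 6.87% and 4.22% of all genes, and 0 were called higher, against 6.46% and 4.06%.

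**Figure D3:**
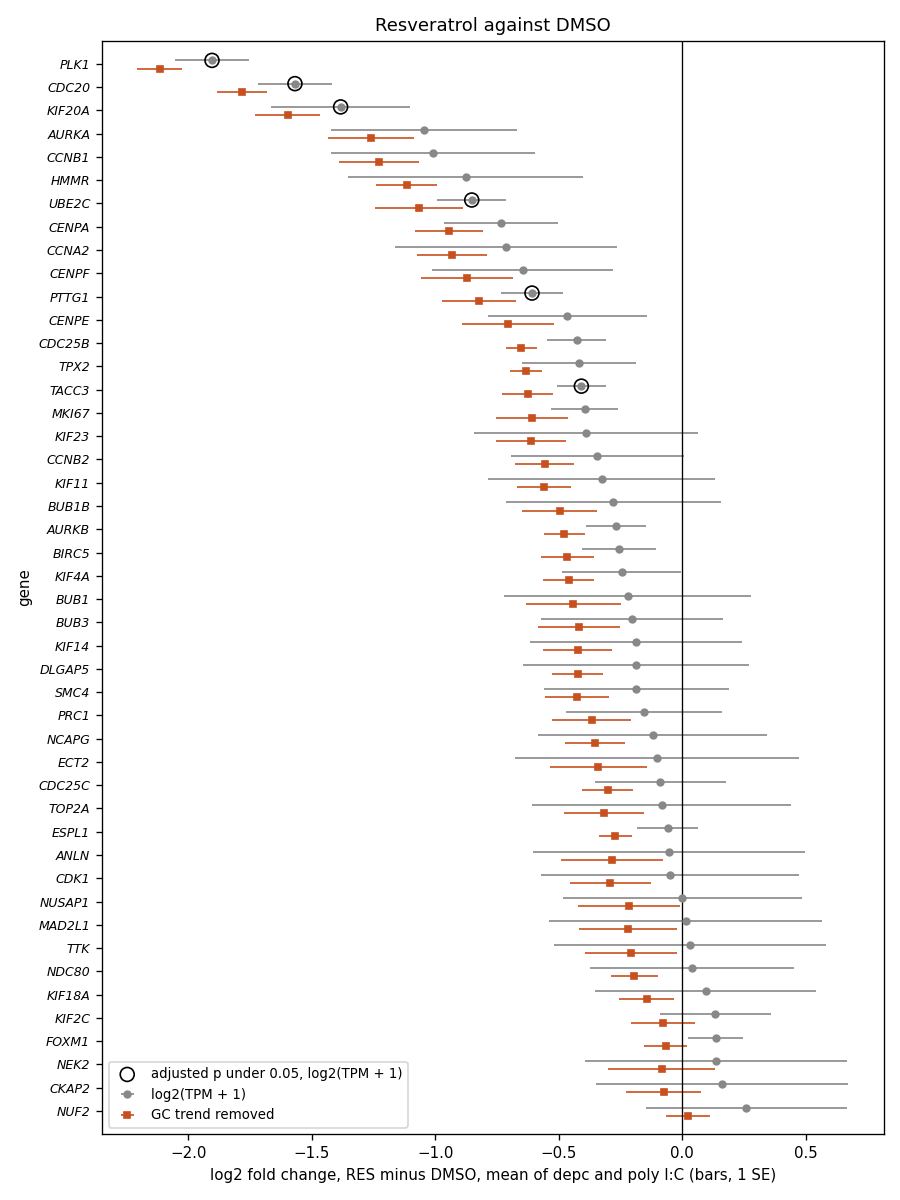
Log2 fold change of each of the 46 mitosis genes, RES minus DMSO averaged over depc and poly I:C, with bars of 1 SE; grey points are log2(TPM + 1), red squares have the GC trend removed, and a ring marks an adjusted p under 0.05 on the first scale. PLK1 at −1.90, CDC20 at −1.57 and KIF20A at −1.38 lie furthest left, and 6 genes are ringed.

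Genes outside the list give the frame for this decrease. The 12 genes listed as steady (housekeeping) genes were also low with RES: 3 of 12 were called lower and 0 higher, against 1.29% of all genes lower and 6.62% higher, led by ACTB at −0.96 (SE 0.13), with a list median of −0.42. After removal of the GC trend 9 of 12 were called lower, with a median of −0.62, against a member median of −0.45. The part of such a shared shift in the members' decrease was not tested. A further list of 50 G2 and M genes had 4 called lower and 0 higher, with a median of −0.07, and 20 lower and 0 higher after the GC trend was removed. PSRC1, a spindle protein, fell by 0.82 (SE 0.11, limma adjusted p = 0.00728) and CDCA3, a mitotic entry factor, by 0.80 (SE 0.13, adjusted p = 0.0109). CCNF, cyclin F, fell by 0.74 (SE 0.16, adjusted p = 0.0271).

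The same shares of all genes, 1.29% lower and 6.62% higher, or 11.7% and 11.6% with the GC trend removed, stand beside the other lists. Of 17 genes of the anaphase-promoting complex and its enzymes, 2 were called lower and 0 higher (4 and 2 with the GC trend removed): UBE2S, which elongates ubiquitin chains, at −0.86 (SE 0.21), and the subunit ANAPC15 at −0.80 (SE 0.10). None of 13 DREAM and MuvB regulators was called by limma, 0 having an unadjusted p under 0.05, and their median was 0.34. After the GC trend was removed, 2 were called higher and 2 lower, with a median of 0.12. Of 34 S phase genes, 2 were called higher and 0 lower, with a median of 0.41, a share no larger than that of all genes, and 8 higher and 3 lower with the GC trend removed. None of the 13 tested of 14 G1 and G1/S genes was called, with 4 at an unadjusted p under 0.05 and a median of 0.23. With the GC trend removed 3 were called higher and 1 lower, with a median of 0.02.

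Of 18 CDK inhibitors and checkpoint regulators, 2 were called higher with RES and 0 lower, against 6.62% and 1.29% of all genes, and 2 higher and 2 lower with the GC trend removed. BTG2, an antiproliferative p53 target, stood at 3.89, 3.65, 5.20 and 4.98 TPM in the DMSO libraries and at 14.4, 14.5, 20.2 and 15.8 TPM in the RES libraries. It rose by 1.67 (SE 0.15, limma adjusted p = 0.00223). GADD45A, a stress-induced gene whose product can inhibit CDK1, rose by 1.41 (SE 0.22, adjusted p = 0.0105), from 9.82, 7.60, 15.1 and 7.37 TPM to 25.9, 20.9, 28.1 and 35.9 TPM.

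The 6 genes lower with RES than with DMSO were also called lower with RES than with 2-CM. In the averaged contrast, also chosen after seeing the data, 9 of 46 members were called lower with RES than with 2-CM and 0 higher, against 1.99% and 2.21% of all genes. PLK1 was lower by a log2 difference of −2.18 (SE 0.15, limma adjusted p = 0.000806), KIF20A by −1.69 (SE 0.28, adjusted p = 0.017) and CDC20 by −1.54 (SE 0.15, adjusted p = 0.00253). The others were UBE2C, PTTG1, TACC3, CDC25B, CENPA and MKI67. The RES libraries lay below all 4 2-CM libraries for 7 members, against 2.95% of all genes. This contrast and that of RES with DMSO share the RES libraries. With 1 library left out, 2 to 10 members were called.

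2-CM itself gave no called member against DMSO. Under depc, limma called 0 of 46 (0 at an unadjusted p under 0.05), against 0.00582% of all genes higher and 0.0291% lower. Under poly I:C it called 0 (13 at an unadjusted p under 0.05), against 0.064% and 0.0407%, and in the average 0 (4 at an unadjusted p under 0.05), against 0.0291% and 0.0524%. The averaged difference was 0.27 (SE 0.15) for PLK1, −0.03 (SE 0.15) for CDC20 and 0.35 (SE 0.11) for FOXM1, and the member median was 0.32 beside 0.25 over all genes. Leaving out 1 library moved that member median to between 0.09 and 0.56, the 2 ends coming with DMSO poly I:C replicate 2 and replicate 1 left out. The average joins member medians of opposite sign, −0.47 under depc (all genes −0.12) and 1.1 under poly I:C (all genes 0.59). With the GC trend removed these 2 medians were −0.02 and 0.18. Under depc the 2-CM libraries lay below both DMSO libraries for 20 of 46 members and above for 6, against 33.3% and 22.8% of all genes. Under poly I:C they lay above both for 40 of 46 members and below for 1, against 70.4% and 6.0% of all genes. Over both transfections no member separated 2-CM from DMSO in either direction, against 3.33% of all genes higher and 0.431% lower. On the GC-corrected scale limma called 1 member lower and 0 higher under poly I:C, against 3.67% and 3.15% of all genes: PTTG1, at −0.88. It called 0 in the average (3 at an unadjusted p under 0.05), against 0.5% of all genes higher and 1.23% lower, and 0 under depc (2 at an unadjusted p under 0.05), against 0.0116% and 0.163%.

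Poly I:C moved few members under DMSO, and those that moved did so in opposite directions. Of the 46, 1 was called higher and 4 lower, against 0.797% of all genes higher and 3.28% lower. MKI67, which encodes the proliferation marker Ki-67 that coats mitotic chromosomes, stood at 39.9 and 32.9 TPM in DMSO depc and at 16.1 and 16.0 TPM in DMSO poly I:C. It fell by 1.13 (SE 0.19, limma adjusted p = 0.0243). PTTG1 went from 394 and 331 TPM in DMSO depc to 708 and 609 TPM in DMSO poly I:C and rose by 0.86 (SE 0.18, adjusted p = 0.0392).

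CDC25B, the phosphatase that starts CDK1 activation, stood at 161 and 173 TPM in DMSO depc and at 85.8 and 95.8 TPM in DMSO poly I:C, and fell by 0.88 (SE 0.17, limma adjusted p = 0.0339). FOXM1 fell by 0.80 (SE 0.16, adjusted p = 0.0359), from 125 and 127 TPM to 66.4 and 78.0 TPM. TACC3 fell by 0.61 (SE 0.14, adjusted p = 0.0482), from 141 and 135 TPM to 90.2 and 89.8 TPM. In all 5 genes the depc and poly I:C libraries did not overlap. Over the list 5 members lay wholly higher and 10 wholly lower with poly I:C, against 11.5% and 33.4% of all genes, so such separation was no more frequent among the members. The calls for MKI67, CDC25B and FOXM1 were lost without any 1 of the DMSO or 2-CM libraries, and those for PTTG1 and TACC3 also without either RES poly I:C library. Upper-quartile and median-of-ratios scaling called 0 members. The fit with the GC trend removed called 5 higher and 4 lower, against 7.94% and 9.62% of all genes, and TACC3 was not among these (limma adjusted p = 0.3).

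The kinase CDK1 and the checkpoint gene MAD2L1 were among the members without a call under DMSO. CDK1 was at 44.6 and 24.5 TPM in DMSO depc and at 115 and 30.2 TPM in DMSO poly I:C. MAD2L1 was at 12.4 and 4.88 TPM in DMSO depc and at 32.1 and 7.47 TPM in DMSO poly I:C. In both genes replicate 1 was far above replicate 2 in the poly I:C group and the groups overlapped. Their log2 differences were 0.82 (SE 0.74) and 0.92 (SE 0.78). On the GC-corrected scale CDK1 rose by 0.81 (SE 0.23, limma adjusted p = 0.0413).

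Under 2-CM, poly I:C was followed by higher levels of most members. Limma called 30 of 46 higher and 4 lower, against 37.5% of all genes higher and 11.8% lower, and the member median was 1.59 beside 0.61 over all genes. With median-of-ratios scaling 21 were called higher and 8 lower, with a median of 0.75 beside 0.03, and over all genes 3484 were then called higher and 4046 lower, against 6440 and 2035 in TPM. With a covariate of replicate differences 0 were called (5 at an unadjusted p under 0.05) and the member median was 0.05 beside 0.02. That covariate is each library's score on the direction of replicate differences, taken from these same data. It was 50 and 79 in 2-CM depc and −88.6 and −72.9 in 2-CM poly I:C. The covariate therefore nearly coincides with this contrast, and a fit with it cannot separate the 2. Without a filter on low genes 0 were called (39 at an unadjusted p under 0.05). All 5 checkpoint genes rose, with a median of 2.48. BUB1, a checkpoint kinase, went from 15.4 and 14.2 TPM to 93.0 and 82.0 TPM and rose by 2.48 (SE 0.71, adjusted p = 0.0301). TTK, which starts checkpoint signalling at kinetochores, went from 5.23 and 3.30 TPM to 38.7 and 33.5 TPM and rose by 2.84 (SE 0.78, adjusted p = 0.0292). MAD2L1 rose by 2.74 (SE 0.78), from 6.94 and 4.36 TPM to 44.3 and 41.0 TPM, and BUB3 by 1.59 (SE 0.52), from 49.8 and 27.8 TPM to 124 and 105 TPM. With the GC trend removed 3 of these 5 were called, with a median of 0.87, and BUB3 was not, at 0.53 (SE 0.23, adjusted p = 0.107).

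In the cyclin B-CDK1 group 4 of 7 were called higher with poly I:C under 2-CM and 5 had a positive value. The share called higher over all genes was 37.5%, which stands beside the other role counts too. CDK1 rose by 2.85 (SE 0.74, limma adjusted p = 0.0281), from 25.04 and 15.7 TPM to 158 and 141 TPM, and CCNA2 rose by 2.17 (SE 0.64), from 26.4 and 19.3 TPM to 113 and 97.3 TPM. CCNB1 rose by 1.60 (SE 0.59, adjusted p = 0.0491), from 178 and 89.2 TPM to 395 and 373 TPM. All 3 cytokinesis genes rose: ECT2, which activates RhoA at the cleavage site, by 2.91 (SE 0.81), the scaffold ANLN by 2.44 (SE 0.78) and the midzone bundler PRC1 by 1.57 (SE 0.45). All 11 kinesins and spindle proteins had positive values and 8 were called higher, led by CKAP2, a spindle-associated protein, at 2.96 (SE 0.72). TOP2A, the topoisomerase that untangles sister chromatids, rose by 2.53 (SE 0.74), and the condensin subunit SMC4 by 2.01 (SE 0.53).

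Many of these calls under 2-CM did not hold with the GC trend removed. In the cyclin B-CDK1 group 2 of 7 were then called higher, in cytokinesis 1 of 3 (median 0.66) and among the kinesins and spindle proteins 4 of 11 (median 0.42), against 13.6% of all genes higher and 15.2% lower. CCNB1 had a value of 0.05 (SE 0.23) and SMC4 one of 0.04 (SE 0.18). TOP2A, at 0.68 (SE 0.23), ANLN, at 0.66 (SE 0.29), and PRC1, at 0.65 (SE 0.23), did not pass the limma test either (adjusted p = 0.052, 0.106 and 0.0578). CDK1 rose by 0.85 (SE 0.23, adjusted p = 0.0272), BUB1 by 0.93 and ECT2 by 0.96.

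Of 8 members with a negative value for poly I:C under 2-CM, the 4 called lower were CDC20, PLK1, CDC25B and ESPL1. CDC20 fell by 0.80 (SE 0.21, limma adjusted p = 0.0281), from 476.5 and 494 TPM to 274 and 282 TPM. PLK1 fell by 0.65 (SE 0.21), CDC25B by 0.63 (SE 0.17) and ESPL1, the separase that cuts cohesin, by 0.57 (SE 0.17). CDC25B did not pass with the GC trend removed, at −0.24 (SE 0.09, adjusted p = 0.0669). MKI67, lower with poly I:C in DMSO cells, had a difference of −0.01 (SE 0.19) here (−0.80, SE 0.21, and called lower with the GC trend removed), at 30.3 and 34.0 TPM with depc and 33.7 and 30.2 TPM with poly I:C. All 34 calls under 2-CM were lost when any 1 of the 4 2-CM libraries was left out.

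These values moved with GC content. All 17 members with GC under 40% were called higher with poly I:C under 2-CM, with a median of 2.44, whereas of 11 members with GC of 50% or more 1 was called higher and 4 lower, with a median of −0.27, against 37.5% of all genes higher and 11.8% lower. Across the 46 genes, which share libraries and are not independent, the log2 difference had a Pearson r of −0.92 with GC under 2-CM, −0.35 under DMSO and −0.51 under RES. The 2 2-CM poly I:C libraries were those in which the GC-poorest of all genes tested stood highest, at 1.25 and 0.98 log2 units above their mean over libraries. In 2-CM depc these genes stood at −0.73 and −0.98, so the rise of GC-poor genes was not particular to the members. The share called among all genes with GC under 40% is not given here. After the trend was removed, r with GC was still −0.52 under 2-CM, beside −0.15 under DMSO and 0.0 under RES. A relation to GC content therefore remained among the members under 2-CM. On that scale 12 members were called higher and 5 lower, against 13.6% and 15.2% of all genes. The 12 were CDK1, CCNA2, BUB1, MAD2L1, TTK, CENPA, NDC80, KIF18A, KIF23, HMMR, ECT2 and CKAP2, with log2 increases of 0.48 (KIF18A) to 1.00 (CKAP2). The 5 were CDC20, MKI67, PLK1, ESPL1 and FOXM1. CENPE, a kinetochore motor called higher at 1.37 (SE 0.45) before, had a value of −0.66 (SE 0.26) after.

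**Figure D4:**
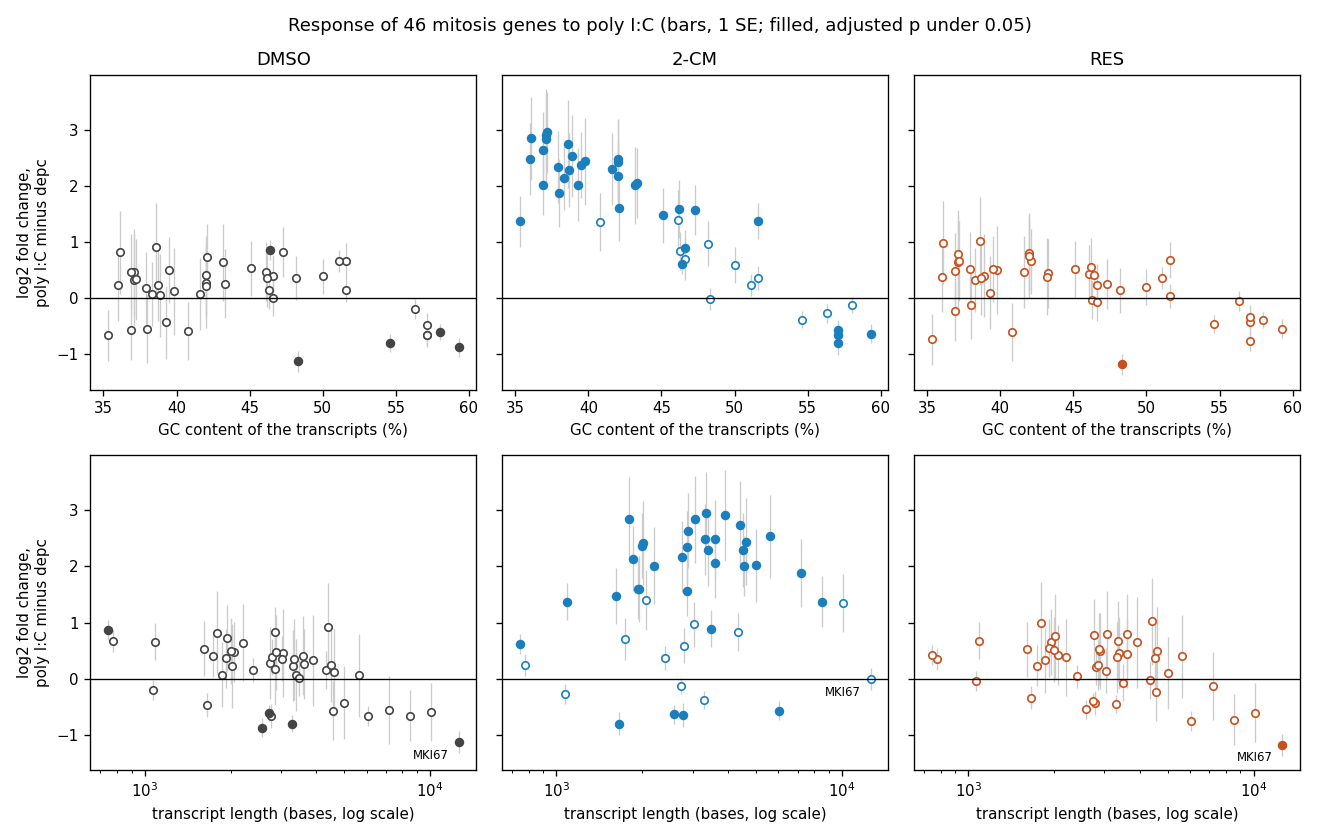
Log2 fold change of the 46 mitosis genes with poly I:C, with bars of 1 SE, against the GC content (top) and length (bottom, log axis) of their transcripts, for DMSO, 2-CM and RES from left to right; filled points have an adjusted p under 0.05. Under 2-CM the values fall steeply with GC content (r = −0.92), and under DMSO and RES the longest gene, MKI67, has the lowest value.

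Length also moved with the responses. The 7 members of at least 5000 bases had a median of −0.59 under DMSO and −0.60 under RES, beside 0.32 and 0.42 for the 39 shorter members, and 1.37 beside 1.60 under 2-CM. With the GC trend removed the 2 medians were −0.58 and 0.30 under DMSO, −0.52 and 0.16 under RES, and −0.33 and 0.42 under 2-CM. Against log2 length, r across genes was −0.55 under DMSO, −0.45 under RES and 0.16 under 2-CM, and −0.67, −0.71 and −0.13 after the GC trend was removed. The longest members were MKI67 at 12622 bases, CENPF at 10103 and CENPE at 8512. CENPF, a kinetochore and nuclear envelope protein, stood at 18.8 and 11.2 TPM in DMSO depc and at 10.9 and 7.96 TPM in DMSO poly I:C. CENPE stood at 5.60 and 3.04 TPM and at 2.79 and 1.83 TPM. In both the poly I:C libraries lay below the depc libraries, as in 33.4% of all genes, and neither passed the test (log2 differences −0.59, SE 0.52, and −0.66, SE 0.45). In members of at least 3000 bases, the median ratio of coverage in the 3′ part to that in the 5′ part of the transcript was 1.01 to 1.15 per library, and its part in the length relation was not tested.

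Under RES, poly I:C gave 1 called member, MKI67, against 0.198% of all genes higher and 0.244% lower. It stood at 29.0 and 26.7 TPM in RES depc and at 10.5 and 13.1 TPM in RES poly I:C, and fell by 1.18 (SE 0.19, limma adjusted p = 0.0462). The call was lost without any 1 of the 12 libraries (adjusted p 0.08 to 0.184), while the value stayed between −1.33 and −1.03. Without the GC trend 3 members were called lower and 0 higher, against 2.24% and 1.59%: MKI67 at −1.23, CENPE at −1.16 and ESPL1 at −0.42.

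Averaged over the 3 compounds, poly I:C was followed by 11 members called higher and 7 lower, against 13.4% and 17.8% of all genes. The higher calls numbered 25 with FPKM or CPM, 23 with upper-quartile and 22 with median-of-ratios scaling, each with 7 lower. The calls kept whichever library was left out were CENPA and PTTG1 among those that rose, and MKI67, CDC25B, FOXM1, TACC3, PLK1 and ESPL1 among those that fell. CENPA rose by 0.90 (SE 0.19, limma adjusted p = 0.0103), from 36.3, 27.2, 33.3, 27.7, 25.1 and 13.4 TPM in the depc libraries to 63.7, 39.5, 81.8, 78.7, 27.5 and 32.8 TPM in the poly I:C libraries in the order DMSO, 2-CM and RES. MKI67 fell by 0.77 (SE 0.11, adjusted p = 0.00299), CDC25B by 0.68 (SE 0.10, adjusted p = 0.0029) and ESPL1 by 0.66 (SE 0.10, adjusted p = 0.00347). Without the GC trend 14 were called higher and 10 lower, against 17.9% and 18.9% of all genes. MKI67 then fell by 1.05, whereas PTTG1 had a value of 0.24 (SE 0.12) and TACC3 one of −0.03 (SE 0.08), and neither passed.

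The difference between responses was tested directly and gave no call. For 2-CM minus DMSO, limma called 0 of 46 (14 at an unadjusted p under 0.05), against 0.0116% of all genes higher and 0% lower, with values from −0.43 (UBE2C) to 2.62 (CKAP2). SMC4 had 2.58 (SE 0.75, adjusted p = 0.161) and CENPF 1.94 (SE 0.73, adjusted p = 0.161). After removal of the GC trend limma called 0 as well (6 at an unadjusted p under 0.05), against 0.0175% of all genes higher and 0.0582% lower. For RES minus DMSO it called 0 of 46 (0 at an unadjusted p under 0.05), against 0% of all genes in either direction, with values from −0.58 (PRC1) to 0.53 (NEK2). The difference for MKI67 was 1.12 between 2-CM and DMSO (adjusted p = 0.161; 0.31, adjusted p = 0.501, with the GC trend removed) and −0.05 between RES and DMSO (adjusted p = 1.00).

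In the authors' deposited table for poly I:C under 2-CM, 30 of 46 members were called higher and 10 lower at an adjusted p under 0.05, against 23.0% and 23.5% of the 23551 genes with an adjusted p there. CDK1 there had a log2 fold change of 1.98 (SE 0.201) in the authors' deposited table, CDC20 one of −1.667 (SE 0.156), PLK1 −1.551 (SE 0.160) and MKI67 −0.863 (SE 0.169). PTTG1, at 0.62 in the fit above, was at −0.225 (adjusted p = 0.306) in the authors' deposited table. The limma value of PTTG1 was −0.23 with median-of-ratios scaling and −0.42 with the GC trend removed, neither past the threshold. UBE2C (−0.595) and BIRC5 (−0.541) were called lower in the authors' deposited table, although their mean TPM was higher with poly I:C under 2-CM. It went from 327.1 to 387.5 TPM for UBE2C and from 97.06 to 123.6 TPM for BIRC5, and the fit above called neither. The authors' deposited tables for DMSO and RES called 0 of 46 in either direction, against 0.751% of genes higher and 0.499% lower for DMSO and 0.266% and 0.0975% for RES.

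PTTG1 was the highest member, with a mean of 441 TPM over 12 libraries, followed by UBE2C at 304 and CDC20 at 297. The lowest were CENPE at 3.22, KIF14 at 3.44 and KIF18A, a kinesin that limits chromosome oscillation, at 4.55 TPM. Most members followed the list's mean over the 12 libraries: r was 0.99 for CCNA2 and KIF23 and 0.98 for HMMR, but 0.18 for PLK1, 0.04 for CDC20, −0.19 for CDC25B and −0.24 for ESPL1. On the GC-corrected scale PLK1 had r = 0.87 and CDC20 0.81, AURKA, KIF20A and HMMR each 0.98, and FOXM1 −0.01. These are descriptions over 12 libraries that share their groups.

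Among the genes outside the lists whose level was most like the list's mean were RSL1D1 (r = 0.993) and TAF1D (r = 0.989). That likeness was common: 1045 of 9983 genes with a mean of at least 5 TPM had r over 0.9. After the GC trend was removed 71 had, led by PIF1 (0.981), a helicase, LMNB2 (0.976), lamin B2, and TXNL4A (0.972).

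Some levels may depend on how reads were shared out, which was not tested. In 18 members exons overlap those of another gene. The largest overlaps were on the same strand, PRC1 with AC068831.7 (3181 bases, 14.0 TPM on average) and NUSAP1 with AC087721.2 (2938 bases, 4.24 TPM). On opposite strands KIF20A overlapped CDC23 (74 bases) and BRD8 (132 bases), and FOXM1 overlapped ITFG2 (781 bases). No strand option stands in the quantification command, so reads of pairs on opposite strands may not have been told apart. Pairs on the same strand could not be told apart by strand in any case. PLK1 overlapped only genes at under 0.1 TPM on average, and CDC20 overlapped none. Near copies were low: CDC20P1 stood at 1.16 to 7.38 TPM, and PTTG2 at most 0.17. The leading transcript held 84.4% of CDC20 on average (78.7 to 94.1% by library), 68.3% of PLK1 (58.8 to 86.5%) and 97.2% of KIF20A (93.0 to 99.4%).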

How the data were processed

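RNA-seq libraries of polyA RNA (2 reads of 101 bases) numbered 12, in 6 groups of 2. Per the submitters' processing notes, reads were converted with bcl2fastq 2.20 and aligned with HISAT2 2.1.0 to hg38. Per the file headers, StringTie 2.0.4 with the GENCODE 32 annotation then gave the deposited coverage, FPKM and TPM of each transcript. The authors deposited 3 tables with a mean normalised count signal, a log2 fold change, its standard error and p-values per gene, and the processing notes name DESeq2. Which libraries those fits used is not given in the sources used here.

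TPM was summed over transcripts to 60609 genes. Genes with at least 1 TPM in at least 2 libraries were tested (17185) on log2(TPM + 1), so folds of low genes are understated. A single limma 3.58.1 fit (R 4.3.3, trend, 6 residual degrees of freedom) gave all contrasts, with Benjamini-Hochberg adjustment over all genes and calls at adjusted p under 0.05. A test on counts had been planned in case the files held them. The GC trend is a lowess curve of each library's levels on transcript GC content, from the reference at the files' exons. The fit was tried on simulated data with noise independent between genes. The simulation lacked the shared direction of replicate differences seen here, so it does not check the rate of false calls under it. Members and lists were chosen with earlier results of these data known, and the 3 contrasts averaged over transfections or between compounds were added after seeing the data. Values per library are given for a fixed set of members with 1 or more per role and for the called members with the largest folds. Genes outside the list come from fixed lists, at most 3 called per list, contrast and direction. Depth was 31.2 to 49.4 M estimated reads (coverage times length over read length), and same-numbered replicates were not treated as pairs. Alternatives changed scaling, filter, pseudocount, unit, transcripts, samples fitted and left-out libraries. Promoter sequences are from RefSeq (GRCh38.p14). Some genes that the rule for likeness to the list's mean selects are not reported here.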

Additional observations from a re-analysis of the deposited data

How the results depend on the processing

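Counts of members called depended on the setting, as did the share of all tested genes called in either direction, given in percent after each count. Poly I:C under DMSO (5, 4.08%) gave 1 with FPKM (0.727%), 0 with upper-quartile (0.803%) or median-of-ratios scaling (0.739%), 2 with estimated reads as CPM (1.45%), 0 with only the groups compared (0.0349%), 21 with a covariate of replicate differences (37.8%) and 9 with the GC trend removed (17.6%). Poly I:C under 2-CM (34, 49.3%) gave 0 without a filter (1.61%), 0 with the covariate (1.82%) and 17 with the GC trend removed (28.8%). Poly I:C under RES (1, 0.442%) gave 0 with FPKM (0.209%), either scaling (0.221% and 0.227%) or only the groups compared (0%), 10 with the covariate (20.7%) and 3 with the GC trend removed (3.83%). The mean over compounds (18, 31.2%) gave 32 with FPKM (37.0%), 30 with upper-quartile scaling (36.6%), 29 with median-of-ratios scaling (36.3%), 9 without a filter (9.14%) and 32 as CPM (40.2%). RES against DMSO under depc (2, 1.03%) gave 1 with FPKM (0.343%), 0 with either scaling (0.151% and 0.0756%), 0 with only the groups compared (0%), 23 with the covariate (27.2%) and 14 with the GC trend removed (13.3%). Under poly I:C (2, 0.157%) it gave 0 with FPKM (0.0931%) or upper-quartile scaling (0.0989%), 1 with median-of-ratios scaling (0.134%; KIF20A, neither of the 2), 1 with no filter (0.107%), CPM (0.363%) or protein-coding transcripts (0.143%), 0 with only the groups compared (0%), 27 with the covariate (22.9%) and 14 with the GC trend removed (8.27%). Its average (6, 7.91%) gave 1 with only the groups compared (0.105%), 32 with the covariate (39.3%) and 26 with the GC trend removed (23.3%). RES against 2-CM (9, 4.2%) gave 5 with upper-quartile scaling (2.39%), 2 with only the groups compared (0.745%), 37 with the covariate (32.7%) and 28 with the GC trend removed (21.6%). 2-CM against DMSO (0) gave 6 under poly I:C (22.4%) and 6 in the average (24.1%) with the covariate, and 1 under poly I:C with the GC trend removed (6.82%). The covariate is each library's score on the direction that carried 77.6% of the replicate variance in these same data. Fitting it takes that variance out of the error by construction, so counts with the covariate are no independent check. The cause of the differences between settings was not tested.

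Whether same-numbered replicates form pairs could not be told from the labels or the values. Their deviations correlated between 0.153 and 0.761 in the 10 pairs of groups without RES poly I:C and between −0.796 and −0.307 in the 5 pairs with it. Each group gives only 1 difference between replicates, and 1 direction carried 77.6% of the replicate variance, so these correlations cannot decide the question. With a replicate block the counts were 3 (poly I:C under DMSO, 2.01%), 36 (2-CM, 51.8%), 0 (RES, 0.227%), 22 (mean, 33.3%), 2 and 0 (RES against DMSO under depc, 0.25%, and poly I:C, 0.0524%), 5 (its average, 6.67%) and 9 (RES against 2-CM, 3.44%). The block put PLK1 and CDC20 for RES against DMSO under poly I:C at adjusted p = 0.0537 and 0.081 (limma). It also lost the calls for FOXM1 and TACC3 (poly I:C under DMSO), MKI67 (poly I:C under RES) and TACC3 (RES against DMSO, average).

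With 1 library left out, counts ran from 0 to 5 (poly I:C under DMSO, 0.145 to 5.28% of all genes), 0 to 38 (2-CM, 0.215 to 59.1%), 0 to 0 (RES, 0.0989 to 0.308%) and 8 to 38 (mean, 13.6 to 53.4%), from 0 to 2 (RES against DMSO, depc, 0 to 0.39%), 0 to 1 (poly I:C, 0 to 0.157%), 2 to 8 (average, 1.04 to 8.12%) and 2 to 10 (RES against 2-CM, 0.512 to 3.31%), and stayed at 0 for the other 5 contrasts.

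Some members changed sign. For poly I:C under 2-CM with the covariate, values were −0.26 for CCNB1, −0.12 for CCNB2, −0.07 for BUB3, −0.06 for NEK2, −0.11 for KIF11, −0.03 for KIF14, −0.11 for TPX2, −0.24 for NUSAP1 and −0.14 for ANLN. With the GC trend removed they were −0.66 for CENPE, −0.04 for KIF14, −0.12 for TPX2 and −0.42 for PTTG1, which was also −0.02 with upper-quartile and −0.23 with median-of-ratios scaling. In the mean over compounds, values with the GC trend removed were −0.63 for CENPF, −0.38 for KIF14 and −0.40 for SMC4, and with the covariate −0.35 for KIF11 and −0.42 for KIF14. For RES against DMSO under poly I:C with the covariate, TOP2A was at −0.37 and ECT2 at −0.44. Scaling moved the median of all genes: with poly I:C under 2-CM it was 0.61 in TPM and 0.03 with median-of-ratios scaling. PLK1 and CDC20 were negative for RES against DMSO under every setting. Depth was 31.2 to 49.4 M estimated reads, and its part in the error of the lowest members was not tested.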
